A study of Mus musculus with 12 samples.

Results

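Germline stem cells (GSCs) are spermatogonial stem cells expanded in culture, and each GSC line of this study was sequenced from a pair of cultures, replicate 1 and replicate 2. The comparison described here sets replicate 1 against replicate 2 within each of the 2 GSC lines, which uses 4 of the 12 libraries, and asks which genes differed between the cultures in the same direction in both lines. Genes with at least 5 RPM (the reads of a gene relative to all reads of its library) in at least 2 of those 4 libraries were kept, 10886 of the 26219 in the table. GSC_1 and GSC_2 came from separate mouse testes at postnatal day 7. The other 8 libraries, used as background, are the replicate pairs of 4 lines of germline stem cell-like cells (GSCLCs) from reconstituted testes kept in culture. Those testes had been held at 34°C throughout, for 3 weeks, before GSCLC_1 and GSCLC_4 were derived, and at 37°C for 2 weeks followed by 34°C for 1 week before GSCLC_2 and GSCLC_3 were. GSC and GSCLC lines alike were on a C57BL/6 x 129/SvJcl background, carried the AcrAct_EGFP reporter and were grown in a StemPro-34 medium with GDNF, bFGF, LIF, EGF and a little fetal bovine serum. The labels call the replicates biological replicates of the culture, and nothing in them says that a replicate number marks a day, passage or batch shared between lines. P-values therefore measure the spread between these cultures, which may be partly technical.

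Spermatogonial stem cells sit on the wall of the seminiferous tubule beside Sertoli cells, which nourish them and supply GDNF, and peritubular cells. Between the tubules lie Leydig cells, which make testosterone from cholesterol: STAR carries cholesterol into the mitochondrion, CYP11A1 cleaves its side chain to give pregnenolone, HSD3B enzymes turn pregnenolone into progesterone, and CYP17A1 and HSD17B3 complete the path to testosterone. The transcription factor NR5A1 drives many of these genes. Germ cell cultures begin from testis tissue, so their RNA can include that of somatic cells, and in such bulk libraries a change in the number of cells of a type cannot be told apart from a change in RNA per cell.

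Ranked by the smaller of the pair of line differences, the genes farthest apart between the cultures began with Cyp11a1 and Hsd3b1, consecutive enzymes of that path, and their promoters are shown because the pair moved together. Each sequence runs from 250 bases before to 50 bases after a RefSeq start site in GRCm38.p6, 5′ to 3′ on the gene's strand, with the letters CCAAT in capitals where a search of both strands found them.
Cyp11a1, first of its start sites, chr9:57997774-57998073, plus strand: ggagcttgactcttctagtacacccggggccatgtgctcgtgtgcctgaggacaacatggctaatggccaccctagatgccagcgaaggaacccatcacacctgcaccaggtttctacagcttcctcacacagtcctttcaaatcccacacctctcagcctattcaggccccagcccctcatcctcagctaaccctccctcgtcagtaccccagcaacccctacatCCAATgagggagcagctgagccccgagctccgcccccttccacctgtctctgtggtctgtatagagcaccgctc
Hsd3b1, chr3:98859745-98860044, minus strand: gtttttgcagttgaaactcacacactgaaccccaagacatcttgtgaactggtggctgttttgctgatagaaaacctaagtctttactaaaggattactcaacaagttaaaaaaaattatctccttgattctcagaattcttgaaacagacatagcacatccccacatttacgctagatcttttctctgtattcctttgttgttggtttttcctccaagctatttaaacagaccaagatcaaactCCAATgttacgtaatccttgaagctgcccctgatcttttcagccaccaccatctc
CCAAT occurred in 37.4% of all 32851 promoters of this length in the RefSeq table. AAGGTCA, a core that NR5A1 is known to bind, occurred in 4.72% of them and in none of the promoters found for the genes that differed in both lines. Of the 17 such genes, 12 had a promoter in the table, some at several start sites. Of their 17 promoters, 8 (47.1%) held CCAAT, 1 held TATAAA and 0 held AAGGTCA, and the other Cyp11a1 start site, at chr9:58014702-58015001, held none of the 3. These counts describe letters in the windows and say nothing of any factor.

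A set of 14 genes was at least 2-fold higher in replicate 1 than in replicate 2 in both GSC lines on the log2(RPM + 1) scale. They are the steroid enzymes Cyp11a1 and Hsd3b1, the retinaldehyde dehydrogenase gene Aldh1a1, the genes for secreted or extracellular proteins Sfrp4, Prss35, Clu, Cxcl12, Wnt5a and Frem2, the detoxification genes Gstm2, Mgst1 and Ugt1a6b, the heparan sulfate sulfotransferase gene Hs6st2 and the actin regulator gene Mical3. Only Ccl2, Slc15a1 and 6330439K17Rik were at least 2-fold lower in replicate 1 in both lines. The 14 make up 0.129% of the genes tested and the 3 make up 0.0276%. Another 31 genes, 0.285%, were at least 2-fold apart in both lines but in opposite directions. These values chose the genes, so their sizes are a description. At the 2-fold line, Mical3 at 1.03 and Slc15a1 at 1.05 (the smaller of the pair of line differences, in log2, without its sign) lay just inside, and 1700080O16Rik at 0.9995 and Sfrp5 at 0.9985 just outside.

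**Figure D1:**
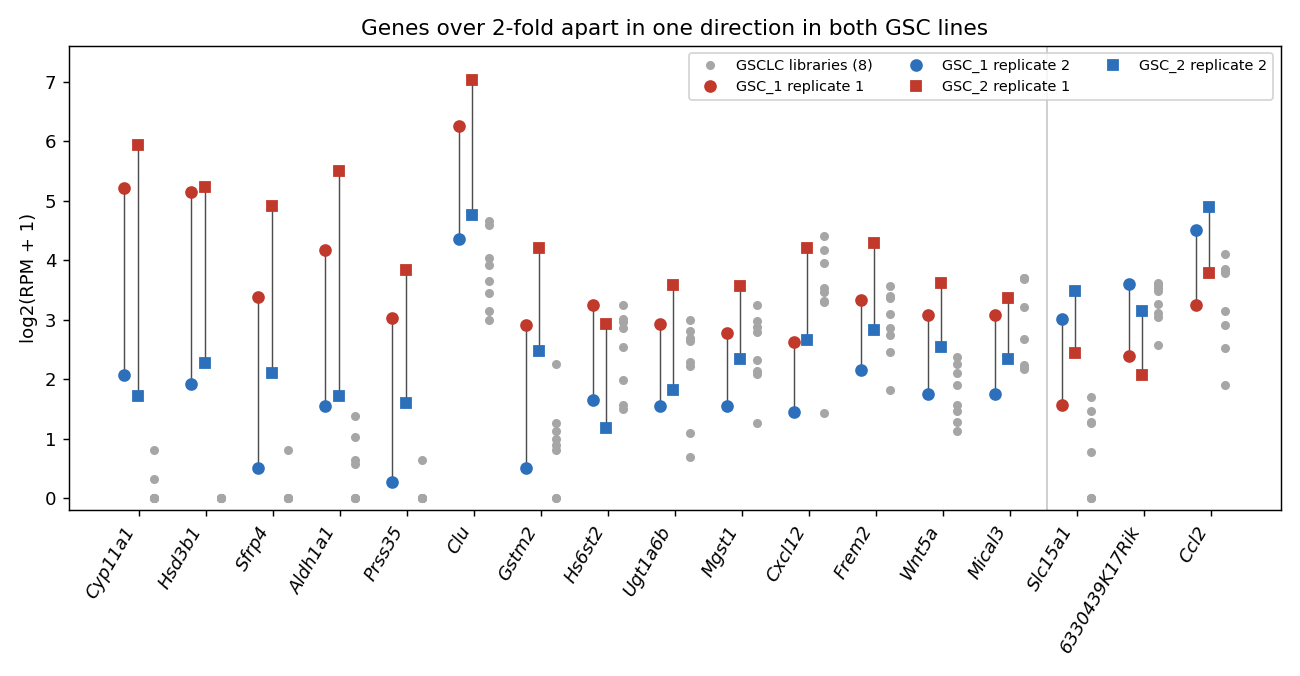
Level of each of the 17 genes in log2(RPM + 1) (y axis) in the 4 GSC libraries (red, replicate 1; blue, replicate 2; circles, GSC_1; squares, GSC_2; a line joins the replicates of a line) and in the 8 GSCLC libraries (grey). The 14 genes left of the vertical line were higher in replicate 1 and the 3 to its right lower, and Cyp11a1, Hsd3b1, Sfrp4 and Prss35 were below 1 RPM in every GSCLC library.

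Cyp11a1, the gene of the enzyme that starts steroid synthesis (gene 13070, chromosome 9, 57998024 to 58027031, GRCm38), was at 36.2 RPM in GSC_1 replicate 1 and 3.23 RPM in replicate 2, and at 60.1 and 2.30 RPM in GSC_2. Both replicate 1 libraries lay more than 10 times above both replicate 2 libraries, and even the replicate 2 libraries lay above the 0 to 0.751 RPM of the GSCLC libraries. By the RPM step of each library, these values correspond to about 111, 15, 244 and 9 reads. The fitted difference was 3.67 ± 0.56 (log2, limma estimate ± SE, replicate 1 minus replicate 2 in 2 lines, 95% interval 2.50 to 4.85) with a Benjamini-Hochberg adjusted p of 0.0412, and it was higher in replicate 1 in 2 of 2 lines.

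Hsd3b1, whose enzyme acts on the product of CYP11A1 (gene 15492, chromosome 3, 98842356 to 98859794), was at 34.2 and 2.80 RPM in replicates 1 and 2 of GSC_1 and at 36.7 and 3.83 RPM in GSC_2. The groups did not overlap, and the gene was listed at 0 in all 8 GSCLC libraries, where 3 reads correspond to 0.709 to 0.99 RPM. Its difference of 3.09 ± 0.54 did not pass, with an adjusted p of 0.0874. None of the 40-base words in the last 300 bases of its transcripts recurred in a transcript of another gene, whereas 29.1% of those of its paralog Hsd3b6 recurred in other genes, other Hsd3b genes among them. Hsd3b6, the form of adult Leydig cells, reached at most 0.246 RPM.

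Most of the rest of the path did not share this pattern. Star, the cholesterol carrier, was at 3.91 and 4.09 RPM in GSC_1 and at 11.3 and 4.08 RPM in GSC_2, and fell short of the level filter. Cyp17a1, Hsd17b3, Cyp21a1, Cyp11b1 and the regulator Nr5a1 were at 0 in all 4 GSC libraries, where 3 reads correspond to 0.646 to 0.978 RPM. Fdxr, which with Fdx1 passes electrons to CYP11A1, was at 13.0 and 8.61 RPM in GSC_1 and at 16.0 and 7.40 RPM in GSC_2. It was higher in replicate 1 in the 2 GSC and the 4 GSCLC lines, by 0.78 ± 0.33 in the GSC fit, with an adjusted p of 1. Fdx1 itself stood at 67.5, 76.0, 64.7 and 55.6 RPM in GSC_1 replicates 1 and 2 and GSC_2 replicates 1 and 2, in that order, with no common direction.

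Over the list of steroid synthesis enzymes and carriers, 10 of 25 members in the table were tested, 1 rose (Cyp11a1) and 0 fell, against 0.0184% of all tested genes that rose and 0% that fell. The median difference was 0.11 over the 10 members and 0.03 over all tested genes. Without Cyp11a1 and Hsd3b1 the list's summed level was 340.3, 360.5, 366.5 and 326.6 RPM in GSC_1 replicates 1 and 2 and GSC_2 replicates 1 and 2. The order of the replicates thus differed between the lines once those genes were left out. Most of the remaining sum in GSC_1 replicate 1 came from Fdx1, Por, Cyb5 and Stard3, at 67.5, 67.1, 67.5 and 53.8 RPM. These are not confined to steroid-making cells, and 11 of the 25 members were at 0 in all 4 GSC libraries. The sum therefore says little about genes confined to such cells. Of the list of steroid cell regulators and lipoprotein uptake, 6 of 16 members were tested and 0 passed in either direction. Scarb1, the HDL receptor in that list, was at 27.4 and 46.3 RPM in GSC_1 and at 42.6 and 29.3 RPM in GSC_2.

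Aldh1a1, which makes retinoic acid (gene 11668, chromosome 19, 20492583 to 20643463), followed the same pattern as the steroid enzymes, at 16.9 and 1.94 RPM in GSC_1 and at 44.3 and 2.30 RPM in GSC_2. Its GSCLC libraries reached 1.62 RPM at most. The difference of 3.20 ± 0.58 had an adjusted p of 0.097, and 7.19% of the words at its 3′ ends were shared with Aldh1a7. Stra8, a gene that retinoic acid switches on in spermatogonia, was at 16.3 and 10.1 RPM in GSC_1 and at 15.8 and 7.65 RPM in GSC_2. That difference, 0.80 ± 0.38, did not pass (adjusted p of 1). Over the list of spermatogonial differentiation and retinoic acid response, 18 of 25 members were tested and 0 passed.

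Among the genes for secreted proteins, Sfrp4, a Wnt antagonist (gene 20379, chromosome 13, 19623175 to 19632825), was at 9.45 and 0.431 RPM in GSC_1 and at 29.0 and 3.32 RPM in GSC_2. Prss35, whose product resembles a serine protease (gene 244954, chromosome 9, 86743240 to 86758443), was at 7.17 and 0.215 RPM in GSC_1 and at 13.3 and 2.04 RPM in GSC_2. In GSC_1 replicate 2 both lay under the level of 3 reads. Sfrp4 differed by 2.83 ± 0.58 (adjusted p 0.309) and Prss35 by 2.49 ± 0.61 (adjusted p 1), and in the GSCLC libraries they reached at most 0.751 and 0.571 RPM.

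Clu, which encodes clusterin, an extracellular chaperone abundant in Sertoli cells (gene 12759, chromosome 14, 65968483 to 65981548), had the highest level of the 17 genes. It was at 75.3 and 19.6 RPM in GSC_1 and at 130 and 26.0 RPM in GSC_2. Both replicate 1 libraries lay above the 7.02 to 24.3 RPM of the GSCLC libraries, while the replicate 2 libraries were near the top of that range. The difference was 2.08 ± 0.33 (95% interval 1.39 to 2.78) with an adjusted p of 0.0412, higher in 2 of 2 lines.

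Cyp11a1 and Clu were thus the only genes that passed the limma test across all 10886 genes, both higher in replicate 1, with 0 genes lower and 282 at an unadjusted p under 0.05. Neither call held without any single GSC library, but such a fit loses the pairing of that line and rests on the other line alone. The estimates were then 3.14 to 4.21 for Cyp11a1 and 1.89 to 2.28 for Clu. Both calls were also lost without either GSCLC_2 library (limma adjusted p of 0.0758 and 0.079 for both genes). They were lost too with a pseudocount of 0.5, no filter, a filter at 20 RPM or median-centred libraries. The adjusted p was then 0.0599 to 0.652 for Cyp11a1 and 0.075 to 0.562 for Clu. Clu, but not Cyp11a1, was also lost without the variance trend (0.596) and without the line terms (1). With the 4 GSC libraries fitted alone, which leaves 1 residual degree of freedom, 6 genes passed: Cyp11a1 and Clu with Hsd3b1, Aldh1a1, Sfrp4 and Prss35.

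The detoxification genes differed by less. Gstm2, a glutathione transferase gene (gene 14863, chromosome 3, 107981702 to 107986420), was at 6.52 and 0.431 RPM in GSC_1 and at 17.5 and 4.59 RPM in GSC_2. It shares 12.4% of its 3′-end words with Gstm1 and other relatives. Gstm1 had no common direction, at 26.1 and 28.2 RPM in GSC_1 and at 35.7 and 21.4 RPM in GSC_2. Mgst1, a microsomal glutathione transferase gene, was at 5.87 and 1.94 RPM in GSC_1 and at 10.8 and 4.08 RPM in GSC_2. Ugt1a6b, a glucuronosyltransferase gene, was at 6.62 and 1.94 RPM in GSC_1 and at 11.0 and 2.55 RPM in GSC_2, but 100% of its 3′-end words recur in other Ugt1a genes, so which of them the reads came from is uncertain. Over the oxidative stress and metal response list, 22 of 25 members were tested and 0 passed, with a median of 0.06.

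The remaining genes higher in replicate 1 encode signals and structural proteins. Cxcl12, a chemokine gene, was at 5.22 and 1.72 RPM in GSC_1 and at 17.5 and 5.36 RPM in GSC_2, so that its replicate 1 and replicate 2 values overlapped across the lines. It was the exception among the 14 in this respect, since 13 of 14 did not overlap. Of all tested genes 26.9% did not overlap, in either direction. The 14 were chosen by these same values, so the larger share among them follows largely from that choice. Wnt5a, the gene of a Wnt ligand, was at 7.50 and 2.37 RPM in GSC_1 and at 11.3 and 4.85 RPM in GSC_2. It shares 14.9% of its 3′-end words with Gm2670. Hs6st2 was at 8.47 and 2.15 RPM in GSC_1 and at 6.65 and 1.28 RPM in GSC_2, and was the 1 gene of the 14 with the lower replicate 1 level in GSC_2. Frem2, a basement membrane gene, reached 18.5 RPM and Mical3 reached 9.35 RPM, both in GSC_2 replicate 1. Adjusted p was 1 for these 5 genes and for Gstm2, Mgst1 and Ugt1a6b. In the GSCLC lines Hs6st2 was higher in replicate 1 in 3 of 4, with a fitted difference of 0.77. Cxcl12 was lower there in 4 of 4, with -0.82, and neither passed. Of the 14, 6 had the same direction in the GSCLC fit, against 55.1% of all tested genes.

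The 14 genes were low genes as a group, and the choice of members bears on this. Of the 14, 11 reached 5 RPM only in the replicate 1 libraries and would not have been tested without them, as was the case for 67 of all tested genes. In 13 of the 14 the level in replicate 1 was higher in GSC_2 than in GSC_1, against 43.1% of all tested genes. In 8 of the 14 both replicate 1 libraries lay above every GSCLC library, against 8.47% of all tested genes. In 4 of the 14 no GSCLC library reached 1 RPM, against 0.0459% of all tested genes. The 14 were chosen for high replicate 1 levels, so these shares follow in part from that choice and are only a description.

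Of the genes lower in replicate 1, Ccl2, which encodes a chemokine that attracts monocytes (gene 20296, chromosome 11, 82035577 to 82037452), was at 8.47 and 21.7 RPM in GSC_1 and at 12.8 and 28.8 RPM in GSC_2. It was also lower in replicate 1 in 4 of 4 GSCLC lines, by 0.95 in the GSCLC fit against 1.19 ± 0.39 in the GSC fit (adjusted p 0.688 and 1). Ccl7, a neighbouring chemokine gene picked out after its values were seen, was at 0 and 4.09 RPM in GSC_1 and at 4.92 and 15.8 RPM in GSC_2, below the filter, and was lower in replicate 1 in 4 of 4 GSCLC lines too. Slc15a1, a peptide transporter gene, was at 1.96 and 7.11 RPM in GSC_1 and at 4.43 and 10.2 RPM in GSC_2, and went the other way in 4 of 4 GSCLC lines (1.24 in the GSCLC fit, adjusted p 0.711). 6330439K17Rik was at 4.24 and 11.2 RPM in GSC_1 and at 3.20 and 7.91 RPM in GSC_2, and 2 of the 3 genes passed the filter only through replicate 2.

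Among genes with a mean of at least 20 RPM in the higher replicate, Cyp11a1, Hsd3b1, Aldh1a1 and Clu on the higher side and Ccl2 on the lower side were over 2-fold apart in both lines. The next higher genes by the smaller line difference were Igfbp3, AU020206, Cnpy4, Ift27, Akap9, Cenpp, Morn4 and Prkdc, with fitted differences of 0.63 to 0.93 and adjusted p of 1. Igfbp3, which encodes a carrier of insulin-like growth factors, was at 19.2 and 8.83 RPM in GSC_1 and at 23.4 and 12.8 RPM in GSC_2, and was higher in replicate 1 in 4 of 4 GSCLC lines as well. On the lower side after Ccl2 came Lox, S100a11, E330016A19Rik, Lmna, Lsr, Tenc1, Pcp4l1, Gm12854, Lsm5, Lyrm4 and Phlda1, and none passed. Lox, a gene of collagen crosslinking, was at 8.47 and 19.6 RPM in GSC_1 and at 40.1 and 70.7 RPM in GSC_2. S100a11, a calcium-binding protein gene, had the smallest adjusted p of these, 0.857, with 70.1 and 120 RPM in GSC_1 and 63.8 and 105 RPM in GSC_2. It shares 28.4% of its 3′-end words with Gm12854 and other copies, so these entries are not independent.

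**Figure D2:**
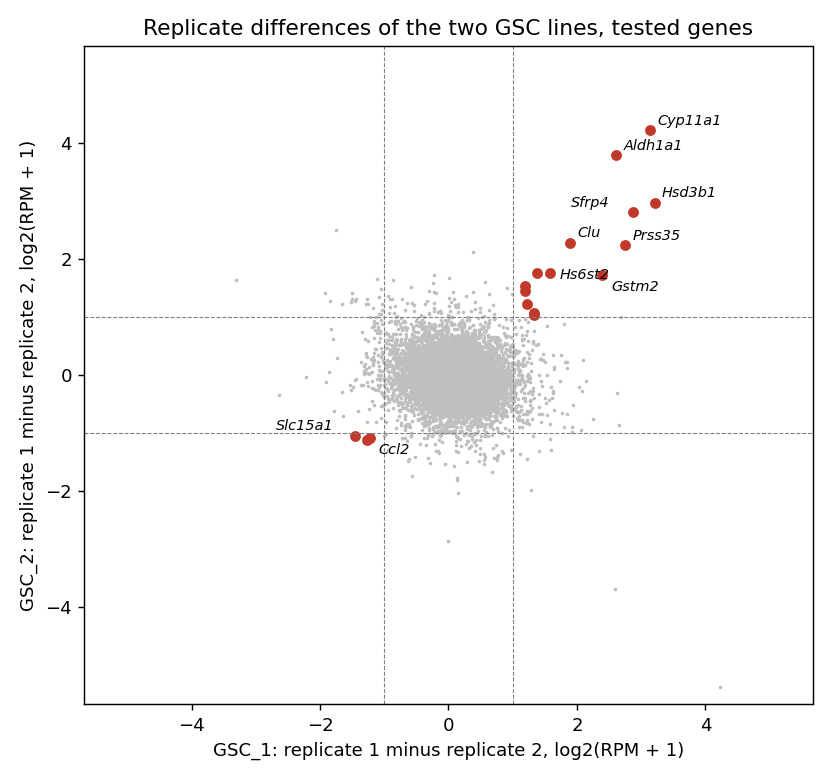
Difference between replicate 1 and replicate 2 in log2(RPM + 1) for GSC_1 (x axis) and GSC_2 (y axis), with each of the 10886 tested genes as a point, the 17 genes at least 2-fold apart in the same direction in red and dashed lines at 2-fold. Cyp11a1, Aldh1a1, Hsd3b1, Sfrp4 and Prss35 lie farthest to the upper right, and most other genes form a cloud without a positive slope (Pearson's r of -0.13).

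Across genes, the replicate difference of GSC_1 did not track that of GSC_2. Pearson's r over the 10886 genes was -0.13 and Spearman's rho -0.14; genes are not independent replicates, so these describe the pair of lines only. In GSC_1, 356 genes (3.27%) were at least 2-fold apart, 225 of them higher in replicate 1, and in GSC_2 204 (1.87%) were, 102 in each direction. With libraries centred on their medians the split in GSC_1 turned to 151 higher and 200 lower. The SD of the replicate difference was 0.44 in GSC_1 and 0.38 in GSC_2, and the GSCLC lines gave 0.38 to 0.47, with 243 to 508 genes at least 2-fold apart. The spread between the replicates of a GSC line was thus of the size seen in the GSCLC lines.

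The number of genes apart in the same direction lay within the range of the GSCLC pairs. For the 6 pairs of GSCLC lines, 11 to 33 genes were at least 2-fold apart in the same direction and 10 to 25 in opposite directions, with genes kept by the level filter on each pair's own libraries, against 17 and 31 for the GSC pair, whose count in opposite directions was above that range. Counted over the same 10886 genes for every pair, the GSCLC pairs gave 11 to 38 and 4 to 36, a range that holds both counts of the GSC pair. At 4-fold, a threshold chosen after the data were seen, the GSC pair had 5 genes (0.0459% of those tested) higher in replicate 1 in both lines (Cyp11a1, Hsd3b1, Sfrp4, Aldh1a1 and Prss35) and 0 lower. By each pair's own filter, the GSCLC pairs had 0 higher and 0 to 2 lower. Over the same 10886 genes, the pair of GSCLC_2 and GSCLC_4 had 1 higher and 1 lower. Pairs of a GSC and a GSCLC line had 0 or 1 in either direction. Single genes of other pairs lay as far apart or farther, such as Klhl2 at -4.79 or beyond in GSCLC_2 and GSCLC_3 and Gm20604 at 4.57 or more in GSC_2 and GSCLC_2, against 3.14 or more for Cyp11a1. The pairs share lines with each other, so these counts are a description.

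**Figure D3:**
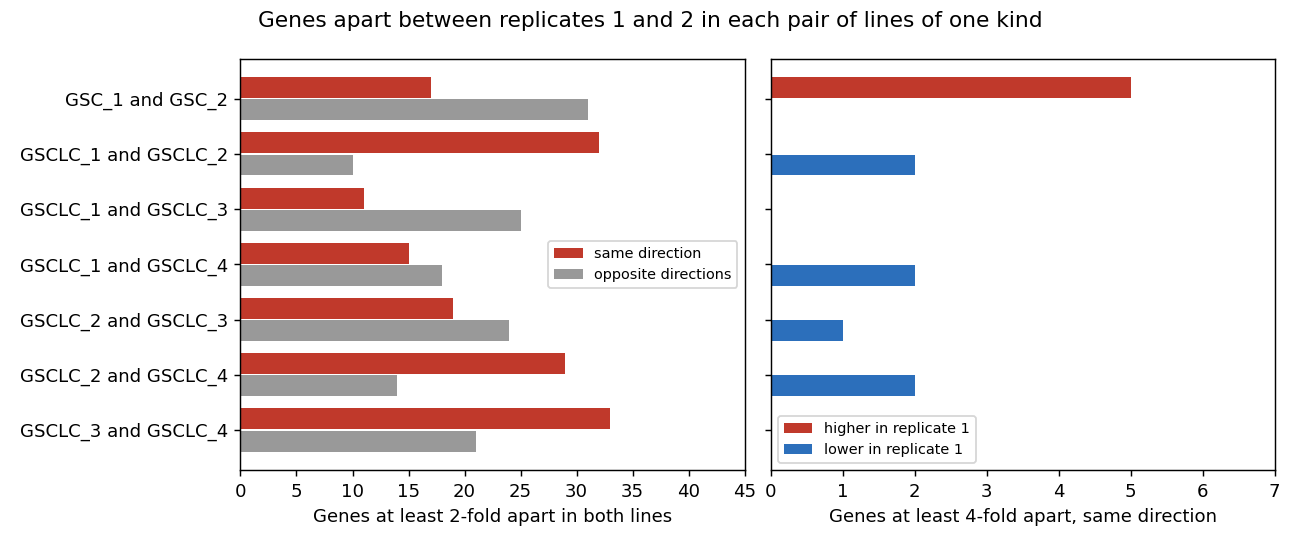
Number of genes apart between replicates 1 and 2 in both lines of a pair (x axes), for the GSC pair and the 6 GSCLC pairs (y axis). Left, at least 2-fold, in the same direction (red) or in opposite directions (grey); the GSC pair with 17 and 31 lies near the GSCLC range. Right, at least 4-fold in the same direction, higher (red) or lower (blue) in replicate 1, where the GSC pair has 5 higher and the GSCLC pairs have 0. Both panels keep genes by the level filter on each pair's own libraries.

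The same genes were then followed in the replicate contrast of the GSCLC lines. The difference between the GSC and the GSCLC replicate effect was 3.56 for Cyp11a1 (unadjusted 95% interval 2.11 to 5.00, adjusted p 0.448), 3.49 for Aldh1a1 (adjusted p 0.448), 3.09 for Hsd3b1 (adjusted p 0.586) and 1.84 for Clu (adjusted p 0.608). In the GSCLC libraries Hsd3b1 was at 0 and Cyp11a1 reached at most 0.751 RPM, so their GSCLC replicate effect could hardly differ from 0. Their near-zero GSCLC pairs also enter the variance behind the limma p-values of these genes, here and in the GSC contrast. No gene (0%) passed this limma test of the difference, with 285 at an unadjusted p under 0.05, so no replicate effect was shown to be particular to the GSC lines. The replicate contrast of the GSCLC lines had 0 genes (0%) past the limma test and 591 at an unadjusted p under 0.05.

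**Figure D4:**
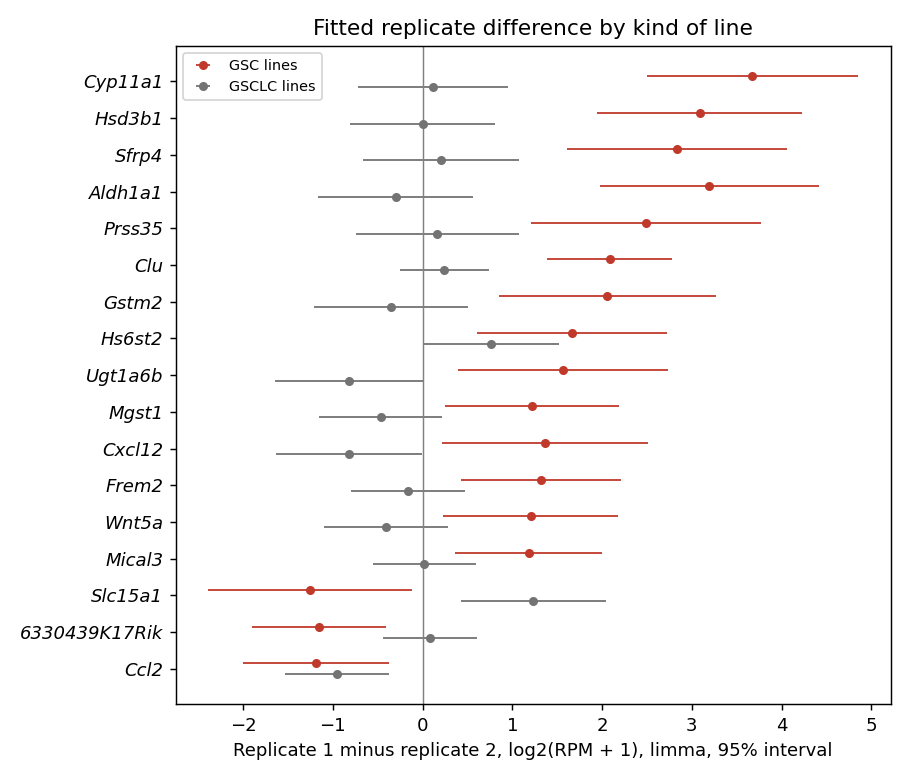
Fitted difference between replicate 1 and replicate 2 (x axis, log2(RPM + 1), limma estimate with its unadjusted 95% interval) for the 17 genes (y axis), in the 2 GSC lines (red) and the 4 GSCLC lines (grey). Cyp11a1 at 3.67 has the largest GSC estimate, Ccl2 lies below 0 in both kinds of line, and Slc15a1 has opposite signs. Cyp11a1, Hsd3b1, Sfrp4 and Prss35 were below 1 RPM in every GSCLC library, so their GSCLC estimates could hardly differ from 0.

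Markers of the somatic cells that a testis culture could hold were compared as summed levels. The 18 Leydig and peritubular markers summed to 123 and 66.3 RPM in replicates 1 and 2 of GSC_1 and to 190 and 96.4 RPM in GSC_2, with 29.6 to 73.8 RPM in the GSCLC libraries. Without Cyp11a1 and Hsd3b1 the sums were 52.8, 60.3, 93.0 and 90.3 RPM, so the summed level of the other 16 markers did not separate the replicates. Much of that remainder was Acta2, at 16.95, 24.3, 23.9 and 21.7 RPM in the same order, and Pdgfra, at 16.95, 15.9, 40.6 and 41.1 RPM. These are smooth muscle and mesenchymal genes, so the remaining sum says little about Leydig cells. Only 6 of the 18 were tested. Of these, 2 (Cyp11a1 and Hsd3b1) were higher in replicate 1 in both lines and 1 was lower, against 24.6% and 18.7% of all tested genes. Lhcgr, Cyp17a1, Hsd17b3 and Tcf21 of this list were at 0 in all 4 GSC libraries, and the Leydig hormone gene Insl3 stood at 0.738 to 1.94 RPM, lower in replicate 1 in both lines. The 24 Sertoli markers summed to 830 and 752 RPM in GSC_1 and to 878 and 784 RPM in GSC_2. Without Clu they gave 755, 732, 748 and 758 RPM, with no common direction, and the Sertoli genes Amh, Gdnf and Fshr were at 0 in all 4 libraries. Of the 24, 9 stayed under 1 RPM in all 4 libraries and only 4 were tested. Of the tested markers, 3 (Clu among them) were higher in replicate 1 in both lines and 1 was lower, against 24.6% and 18.7% of all tested genes.

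**Figure D5:**
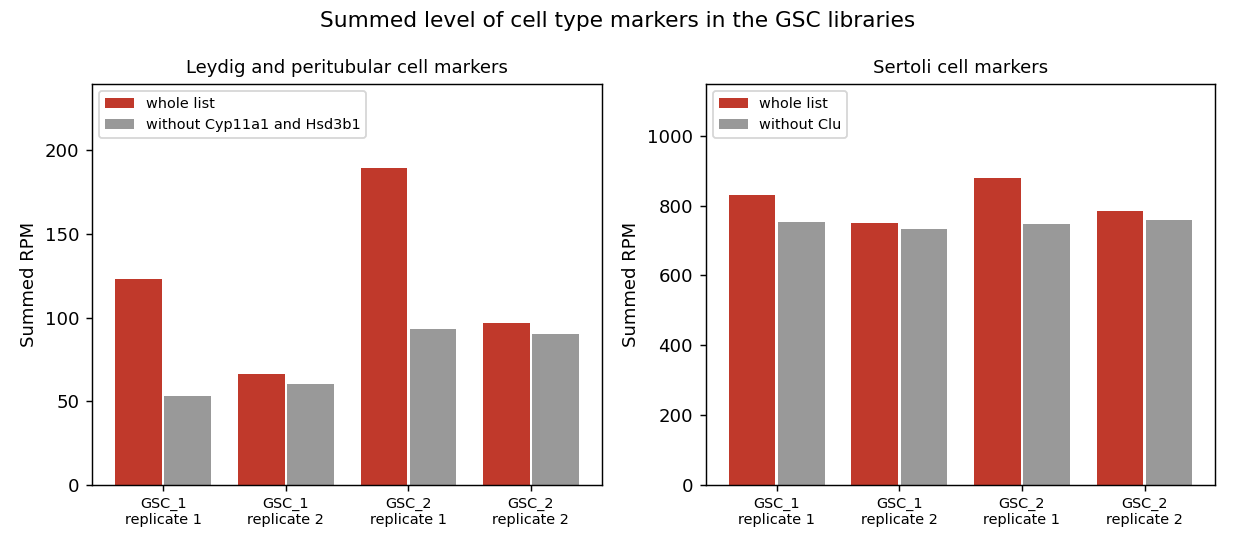
Summed level in RPM (y axes, from 0) of the Leydig and peritubular markers (left) and the Sertoli markers (right) in the 4 GSC libraries, for the whole list (red) and without the named genes (grey). The whole Leydig and peritubular list is higher in replicate 1 in both lines, 123 against 66.3 RPM and 190 against 96.4 RPM, and without Cyp11a1 and Hsd3b1 the order differs between the lines (52.8 against 60.3 RPM and 93.0 against 90.3 RPM).

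Fibroblast and matrix genes summed to 1013 and 966 RPM in GSC_1 and to 1658 and 1948 RPM in GSC_2, which are opposite directions, and 0 of its 23 tested members passed. Sparc, a matrix glycoprotein gene, was at 105 and 65.9 RPM in GSC_1 and at 183 and 168 RPM in GSC_2, and Col1a1 at 117 and 64.8 RPM and at 149 and 159 RPM. Vim, a mesenchymal filament gene, was at 88.0 and 80.5 RPM in GSC_1 and at 135 and 209 RPM in GSC_2. Fcer1g, a myeloid and mast cell gene, was at 10.1 and 4.31 RPM in GSC_1 and at 11.8 and 18.9 RPM in GSC_2, and the macrophage, mast cell and lymphoid list had 6 of 29 members tested and 0 past the test. The part of these somatic levels in the differences above was not tested.

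Germ cell genes were high in all 4 libraries. Dazl, an RNA-binding protein gene of germ cells, was at 1355 and 1200 RPM in GSC_1 and at 1289 and 1328 RPM in GSC_2. Ddx4, a germ cell helicase gene, was at 604 and 464 RPM in GSC_1 and at 362 and 484 RPM in GSC_2, crossing over between the lines. Gfra1, the GDNF receptor gene, was at 369, 332, 280 and 344 RPM in GSC_1 replicates 1 and 2 and GSC_2 replicates 1 and 2, and Ret, its signalling partner, at 271, 279, 294 and 267 RPM. Etv5, a target of GDNF and FGF signals, was at 263, 285, 254 and 324 RPM, and Zbtb16, a stem cell transcription factor gene, at 78.2, 79.9, 68.9 and 73.5 RPM. Kit, a receptor of differentiating spermatogonia, ran from 27.1 to 40.1 RPM, and all 25 germ cell core genes were tested with 0 past the limma test.

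The other lists gave no call in either direction. Of 29 tested S phase genes, 2 were higher and 10 lower in replicate 1 in both lines, and of 31 tested genes of cholesterol synthesis and SREBP targets 2 were higher and 9 lower, where 24.6% of all tested genes were higher in both lines and 18.7% lower. Their medians were -0.02 and -0.07. Hmgcs1, an early enzyme of cholesterol synthesis, was at 153 and 151 RPM in GSC_1 and at 127 and 176 RPM in GSC_2. Of 14 tested genes of the TGF-beta, BMP and Wnt response, 1 was higher and 6 lower in both lines. Egr1, an early response gene, ranged from 196 to 234 RPM and Mki67, a proliferation gene, from 140 to 164 RPM.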

How the data were processed

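The data are a table of RPM, per the labels' protocols from SC3-seq, which amplifies cDNA and reads mRNA 3′ ends, here from 1 ng of total RNA per library on a SOLiD 5500XL. The authors deposited RPM values per gene; the submitters' processing notes name cutadapt 1.3, TopHat 1.4.1, Cufflinks 2.2.0 and mm10 (GRCm38) without saying what each did, and the sources used here do not say whether counting used the strand. The RPM steps imply 3031769 to 4644318 reads per library (99.72% to 99.88% of low values whole within 0.1), but not for every gene, so no count test was run. Between 15895 and 16529 genes were above 0 per library.

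Values were taken as log2(RPM + 1), which understates changes of low genes. limma 3.58.1 in R 4.3.3 was fitted on all 12 libraries with 6 line terms, which pair the replicates of a cell line, and a replicate term for GSC and another for GSCLC lines (4 residual and 13.3 prior degrees of freedom, variances moderated along a trend). Two-sided p-values were adjusted by the Benjamini-Hochberg procedure over all tested genes, with a threshold of 0.05. The genes named per direction were the 12 with the largest smaller line difference, at 20 RPM or more in the higher replicate; as fewer than 5 passed, they are named regardless of the test. List members past the threshold and a set of steroid, somatic and germ cell genes were added, and other genes named were chosen after their values were seen. 1 gene of that set is not reported here. The members and the 24 gene lists were chosen with earlier results of these data known. The fit was tested on simulated data. Alternatives were other pseudocounts, filters, scalings and variance settings, no pairing, and leaving out each library. Shared ends are 40-base words of the last 300 bases of GENCODE transcripts that recur anywhere in transcripts of other genes.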

Additional observations from a re-analysis of the deposited data

Results flagged for a closer look

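Over the 8 GSCLC libraries, a single library stood apart from the rest for 4 of the 17 genes. Gstm2 was at 3.77 RPM in GSCLC_3 replicate 2, where the others had at most 1.41 RPM. Cyp11a1 and Sfrp4 were at 0.751 RPM in GSCLC_4 replicate 1, and Prss35 at 0.571 RPM in GSCLC_1 replicate 1. The values of these last 3 genes lie at or under the level of 3 reads. For roughly normal values, chance alone sets such a mark for about 1 in 20 groups. That rate does not hold for Cyp11a1, Sfrp4 and Prss35, where most GSCLC libraries were at 0 and a few reads set the mark. The GSC groups were too small for the mark.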

How the results depend on the processing

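The count of genes called between GSC replicates moved from 2 to 0 with a pseudocount of 0.5, with no filter, with a filter at 20 RPM and with median-centred libraries. It moved to 6 with a pseudocount of 5 or with the 4 GSC libraries alone, and to 4 with quantile normalisation or without the variance trend, the latter Cyp11a1, Hsd3b1, Prss35 and Sfrp4. The lines pair the replicates by design; with no replicate block (line terms dropped) 1 gene, Cyp11a1, was called. Leaving out each library in turn gave 0 to 2, and 0 without any GSC or either GSCLC_2 library. Cyp11a1 passed in 12 and Clu in 10 of 22 alternatives. For the difference between GSC and GSCLC effects, 3 genes passed with a pseudocount of 5 (Aldh1a1, Cyp11a1 and Hsd3b1) and 1 without the trend (Hsd3b1). For the GSCLC replicates, leaving out each library in turn gave 0 to 7. Without GSCLC_3 replicate 1 these were 7 genes lower in replicate 1, Acta2, Anxa1, Col3a1, H19, LOC100861843, Lox and Mgp, and without GSCLC_3 replicate 2 or GSCLC_4 replicate 1 they numbered 3.

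The 17 genes at least 2-fold apart in the same direction (14 higher, 3 lower) became 7 with a pseudocount of 5, 82 (44 and 38) with no filter, 4 at 20 RPM and 43 (27 and 16) with quantile normalisation; the genes in opposite directions then numbered 10, 99, 9 and 66. Genes at least 2-fold apart in GSC_1 numbered 91, 1237 and 81 under the first 3 of these, and in GSC_2 37, 974, 27 and, with quantile normalisation, 381; these alternatives for single lines were added after seeing the data, as was a filter on the GSC mean. The cause was not tested, apart from the fewer or more genes that a filter leaves.

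The 17 genes above, and those ranked by the smaller line difference, were chosen for a shared direction in both lines. In the fits that leave out a library this choice fixed their sign. Of 54 named genes in the test, 42 kept their sign in every alternative, all 17 above among them. The others changed sign without a library of the line that drove the estimate: Col1a1 (-0.0911 to 0.84 over the fits that leave out each library), Dazl (-0.0435 to 0.17), Ddx4 (-0.42 to 0.38), Egr1 (-0.19 to 0.0659), Fcer1g (-0.63 to 1.07), Fdx1 (-0.17 to 0.22), Gfra1 (-0.29 to 0.15), Hmgcs1 (-0.47 to 0.0162), Mki67 (-0.11 to 0.18), Ret (-0.0428 to 0.14), Scarb1 (-0.74 to 0.52) and Vim (-0.62 to 0.13). Fdx1 also turned to -0.0074 with quantile normalisation and -0.0247 with median-centring, Mki67 to -0.0139 and Ret to -4e-04 with the latter.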

Other observations

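A set of matrix and smooth muscle genes, picked after their values were seen, had lower levels in replicate 1 of the GSCLC lines, though none passed the test. Col3a1, a fibrillar collagen gene, was lower in replicate 1 in 4 of 4 GSCLC lines, by -1.30 in the fit (adjusted p 0.0885), and in the GSC lines it was at 31.0 and 13.6 RPM in GSC_1 and at 87.1 and 76.5 RPM in GSC_2. Anxa1 (-1.25, adjusted p 0.0885), the imprinted RNA gene H19 (-1.24, adjusted p 0.1), the smooth muscle actin gene Acta2 (-1.26, adjusted p 0.152), Mgp (-1.81, adjusted p 0.194) and S100a6 (-0.69, adjusted p 0.216) were lower in replicate 1 in 4 of 4 GSCLC lines too. Between the replicates of the GSC lines, Acta2 and H19 had opposite directions, Col3a1 and Anxa1 were higher in replicate 1 in both, and Mgp and S100a6 were lower in both, with adjusted p of 1. The fibroblast and matrix list summed to 746 and 983 RPM in replicates 1 and 2 of GSCLC_1, 667 and 978 in GSCLC_2, 969 and 1260 in GSCLC_3 and 872 and 1094 in GSCLC_4. In these lines the list was thus lower in replicate 1 throughout, and in the GSC lines its direction differed.

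A few genes below the level filter, picked after their values were seen, also differed in the same direction in both GSC lines. Akr1cl, an aldo-keto reductase gene, was at 4.24 and 0.861 RPM in GSC_1 and at 3.94 and 1.28 RPM in GSC_2. Amhr2, the receptor gene of anti-Müllerian hormone, was at 2.28 and 0.646 RPM and at 4.92 and 0.255 RPM, Sprr1a at 3.91 and 0 RPM and at 5.66 and 0.765 RPM, and Adcyap1, a neuropeptide gene, at 3.91 and 0 RPM and at 4.68 and 1.28 RPM. These genes were all higher in replicate 1. Tgfb3 was lower in replicate 1, at 0 and 1.51 RPM in GSC_1 and at 0.246 and 3.06 RPM in GSC_2. Each rests on few reads and was not tested. With no filter, 44 genes were at least 2-fold higher in replicate 1 in both lines, 38 were lower and 99 went in opposite directions.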
